A study of Mus musculus with 23 samples.

Results

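The genes described are 10 transcription regulators of the myeloid lineage: the ETS factor PU.1 (gene Spi1) and its relatives Fli1, Erg and Etv6, the core binding factor genes Runx1, Runx2, Runx3 and Cbfb, the repressor Gfi1 and the proto-oncogene Myb. Each was read from the probe set whose only annotated symbol was that gene, taking the probe set with the highest mean where several existed. Of the 10 genes, 9 were measured, each by 1 probe set, among 19937 genes in all; Runx2 had no such probe set and was not analysed here. Levels are deposited log2 expression values, on which a difference of 1 is a doubling, and they can be compared within a gene but not between genes.

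PU.1 binds purine-rich ETS sites and is required for the formation of granulocytes, monocytes and lymphocytes, and many genes of phagocyte function, such as receptors for colony-stimulating factors, carry PU.1 sites. RUNX proteins bind DNA as a pair with CBFB, which itself does not contact DNA and strengthens the binding. GFI1 is a zinc-finger repressor needed for neutrophil formation, MYB keeps progenitors proliferating, and FLI1, ERG and RUNX1 act together with GATA2, TAL1, LYL1 and LMO2 in stem and progenitor cells. C/EBPa, the factor deleted in this study, drives the passage from common myeloid progenitors (CMPs) to granulocyte-monocyte progenitors (GMPs) and is a partner of PU.1.

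The study asked what C/EBPa contributes to leukaemia started by MLL-AF9, a fusion oncogene, in mouse marrow, and its 23 arrays fall into 9 groups. All donors carried C/EBPa f/f alleles and received 3 poly I:C injections, which switch on the Mx1 promoter; knockout donors were Mx1-Cre+ and controls Mx1-Cre-, so the controls had the same injections without recombination. Untransplanted marrow, taken 5 days after the injections, gave 4 arrays of control CMPs, 3 of control GMPs and 4 of knockout CMPs. For the other groups, KSLs (Lin- c-kit+ Sca1+ cells, rich in stem cells), from which the labels derive these arrays, were cultured with cytokines that included 100 ng/ml SCF and 10 ng/ml IL-3, infected with MSCV-MLL-AF9-IRES-GFP and given to lethally irradiated congenic recipients with congenic marrow. Leukaemic GMPs (L-GMPs) of control genotype came from primary (2 arrays) and secondary (2 arrays) recipients. Non-leukaemic cells of knockout genotype carrying MLL-AF9 were KSLs (2 arrays, mouse 9 and mouse 11) and CMPs (3 arrays, mouse 9, mouse 11 and mouse 4) from recipients without leukaemia. Knockout L-GMPs (1 primary and 2 secondary arrays) stem from 1 leukaemia, which arose after recipients had received 1 mg of IL-3 and GM-CSF expression vectors by hydrodynamic injection 2 to 4 months after transplantation, so these 3 arrays describe that leukaemia and the cytokines are part of the group. Nothing in the labels says that arrays of the other groups came from separate animals, apart from the mouse numbers, so p-values measure the spread between these arrays.

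The genotype labels held in the arrays' own values: Cebpa ranged from 4.33 to 5.55 on the 12 knockout arrays and from 7.19 to 7.96 on the 11 control arrays. Sorting markers were less uniform in the recipients without leukaemia. The receptor gene Fcgr3, whose product marks GMPs, was at 8.87 or 5.63 in their KSL arrays and at 4.67 to 6.72 in their CMP arrays. It was at 9.60 to 9.76 in control GMPs, 7.26 to 8.28 in control CMPs and 7.24 to 8.64 in untransplanted knockout CMPs. Cd34, a gene of the CMP gate, was at 7.99 to 8.73 in the MLL-AF9 knockout CMPs. In control CMPs it was at 10.62 to 10.78 and in untransplanted knockout CMPs at 9.98 to 10.35. The stem cell marker Ly6a had no probe set. Both arrays of mouse 9 stood apart: the mean of 7 mast cell and basophil genes was 9.84 in its KSLs and 9.57 in its CMPs, against 6.15 to 6.40 on the other 3 arrays of MLL-AF9 knockout progenitors. The CMP array of mouse 4 had a megakaryocyte mean over 6 genes of 9.55, against 6.18 to 6.77 on the other 4. Comparisons of the measured regulators that use these groups are therefore also given without mouse 9. So are the PU.1 target counts, except in these CMPs against KSLs. Counts of the other gene lists are not.

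The 250 bases before the first annotated start site were available for 7 of the 9 measured genes (RefSeq, GRCm38.p6). Spi1 and Fli1 had no such window and were not searched. The windows are shown for Gfi1, lower in knockout CMPs on every array, and for Runx3 and Erg, higher there on every array. The letters that a C/EBP factor or a RUNX factor is known to read can so be seen beside the values. The sequences run 5′ to 3′ on the gene's strand and capitals mark the motif matches. The windows lie at chr5:107725806-107726055 on the minus strand for Gfi1, at chr4:135120395-135120644 on the plus strand for Runx3 and at chr16:95586594-95586843 on the minus strand for Erg.
Gfi1: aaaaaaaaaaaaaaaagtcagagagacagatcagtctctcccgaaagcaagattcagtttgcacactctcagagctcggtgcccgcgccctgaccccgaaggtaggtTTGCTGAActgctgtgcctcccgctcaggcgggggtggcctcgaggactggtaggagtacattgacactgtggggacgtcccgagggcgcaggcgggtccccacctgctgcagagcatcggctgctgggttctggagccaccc
Runx3: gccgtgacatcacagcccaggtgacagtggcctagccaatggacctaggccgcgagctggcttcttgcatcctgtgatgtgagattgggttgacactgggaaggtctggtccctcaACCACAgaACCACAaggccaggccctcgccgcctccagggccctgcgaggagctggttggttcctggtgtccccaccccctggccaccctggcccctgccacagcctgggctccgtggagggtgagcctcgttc
Erg: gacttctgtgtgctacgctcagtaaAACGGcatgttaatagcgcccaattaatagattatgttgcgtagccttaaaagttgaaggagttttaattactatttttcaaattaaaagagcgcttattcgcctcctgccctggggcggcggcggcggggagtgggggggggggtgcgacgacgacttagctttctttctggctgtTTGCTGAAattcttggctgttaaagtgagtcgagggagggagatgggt
In Gfi1 the capitals are a C/EBP match (TTGCNNAA) at positions -143 to -136 from the start. In Runx3 they are 2 RUNX matches (TGTGGT, read on the other strand) at positions -134 to -129 and -126 to -121. In Erg they are a MYB match (AACGG) at positions -225 to -221 and a C/EBP match at positions -48 to -41. Both strands of 32851 promoter windows of this length were searched, and 9.6% held the C/EBP letters, 14.0% the RUNX letters, 14.5% the MYB letters, 23.3% a PU-box (GAGGAA), 12.0% an ETS core (CCGGAA) and 10.0% a GATA site (AGATAA). The PU-box was also matched before a start of Runx1 and of Cbfb, and the ETS core before the same start of Runx1. The windows of Etv6 and Cbfb, also higher in knockout CMPs on every array, held no C/EBP or RUNX letters and are not shown, and that of Etv6 held none of these motifs. Before further starts of Erg lay another C/EBP match and a GATA match, and before those of Gfi1 and Runx3 none. A match describes letters and says nothing of binding, nor does its absence.

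The levels differed most between groups for Spi1. The range of its 9 group means was 2.02 on the log2 scale, exceeded by 5.3% of all genes, against a median range of 0.70 over all genes. Runx1 followed with 1.59, Gfi1 with 1.44, Erg with 1.41, Etv6 with 1.27, Runx3 with 1.17, Myb with 1.02 and Cbfb with 0.74. Fli1 had the smallest range of group means, 0.37, which 82.7% of genes exceeded, yet its single arrays ran from 8.17 to 10.00. Replicates of transplanted groups scattered more than those of untransplanted marrow for each of the 9 genes: the pooled SD was 0.72 against 0.09 for Fli1 and 0.75 against 0.17 for Runx1, beside medians of 0.26 and 0.13 over all genes.

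**Figure D1:**
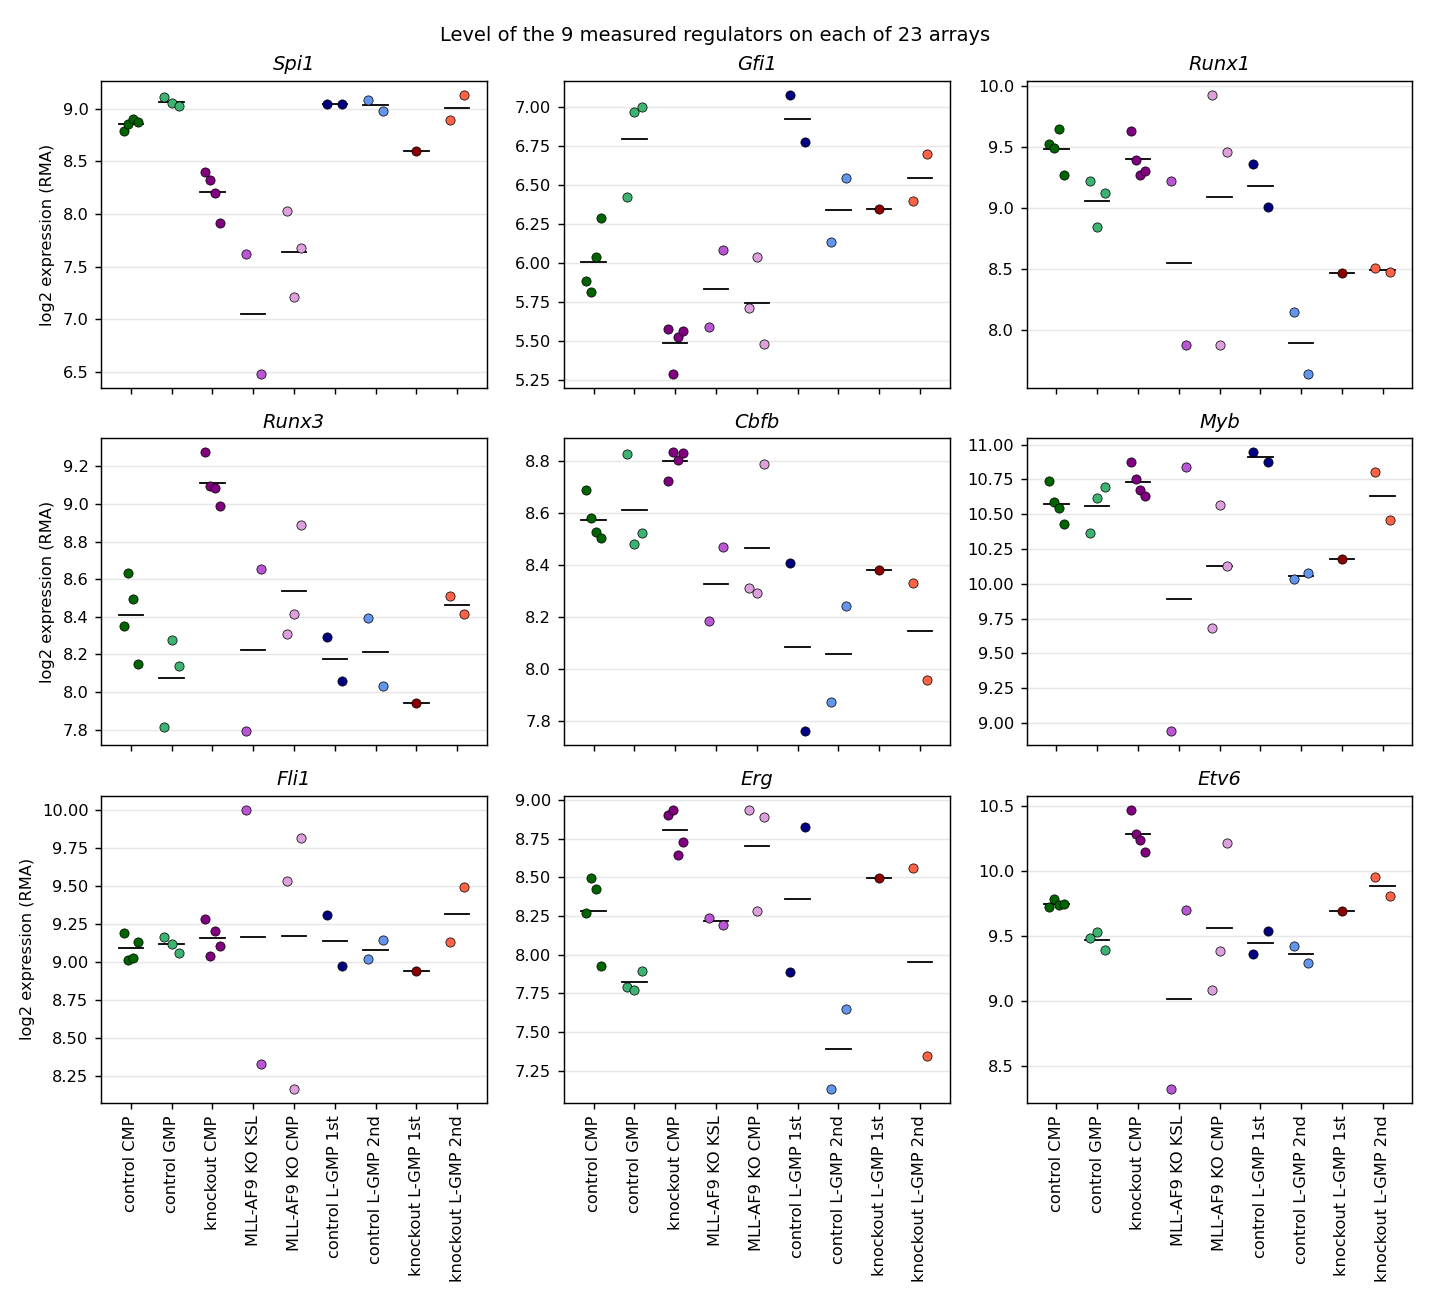
Each point is 1 array, the vertical axis is the deposited log2 expression (RMA) of the named gene with its own scale, bars mark group means, and groups run along the horizontal axis (1st and 2nd are primary and secondary recipients, KO is knockout). Spi1 is lowest in the MLL-AF9 knockout KSLs and CMPs, Runx3 and Etv6 are highest in knockout CMPs, and Fli1 and Runx1 split by mouse in the MLL-AF9 knockout groups.

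Loss of C/EBPa in CMPs of untransplanted marrow went with lower Spi1 and Gfi1 values and higher Runx3, Erg, Etv6 and Cbfb values, of which Runx3 alone passed the test. Runx3 (chr4:135120645-135177990), a RUNX factor best known from lymphocytes, stood at 9.28, 9.10, 9.09 and 8.99 in the 4 knockout CMP arrays and at 8.35, 8.63, 8.50 and 8.15 in the 4 control arrays. No knockout array overlapped a control array, and the rise was 0.70 ± 0.18 (SE), 1.63-fold, with a limma adjusted p of 0.03. Over all genes 2.27% were higher at this threshold and 4.91% changed, against 1 of 9 here. The call rested on single arrays: without control CMP array 1, 3 or 4 the adjusted p was 0.0745, 0.0607 or 0.111, and without knockout CMP array 1, 2 or 3 it was 0.108, 0.0734 or 0.0655.

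Spi1 (chr2:91082374-91115759) was at 8.40, 8.32, 8.20 and 7.92 in knockout CMPs and at 8.79, 8.86, 8.90 and 8.88 in control CMPs. Every knockout array lay below every control array, 1.57-fold on average, with a log2 difference of -0.65 ± 0.20 (SE) and a limma adjusted p of 0.0766. Gfi1 (chr5:107716655-107725805) was at 5.57, 5.29, 5.52 and 5.57 in knockout CMPs, below the 5.88, 5.81, 6.04 and 6.29 of control CMPs. Its difference was -0.52 ± 0.17 (SE), adjusted p 0.108. The ETS repressor Etv6 (chr6:134035700-134270158) ran from 10.15 to 10.47 in knockout CMPs and from 9.72 to 9.79 in control CMPs, a difference of 0.54 ± 0.24 (SE) with an adjusted p of 0.279. Erg (chr16:95359169-95586600), an ETS factor of stem cells, ran from 8.64 to 8.94 against 7.93 to 8.49, a difference of 0.52 ± 0.25 with an adjusted p of 0.323. Cbfb (chr8:105170674-105217989), the non-DNA-binding partner of the RUNX proteins, differed by 0.22 ± 0.15 (adjusted p 0.583) and its arrays did not overlap either. Thus 6 of 9 genes had groups whose arrays did not overlap, a state found for 21.1% of all genes. Myb (chr10:21124930-21160984), Fli1 (chr9:32422204-32543432) and Runx1 (chr16:92601466-92826074) differed by 0.16, 0.07 and -0.08 with standard errors of 0.28 to 0.34, and their arrays overlapped.

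The number called depended on how the spread was estimated. With array weights 18.9% of all genes passed (3762), and so did 5 of the 9, namely Runx3, Spi1 (adjusted p 0.000222), Etv6 (0.0021), Gfi1 (0.00883) and Erg (0.0468). With a fit to the 8 CMP arrays alone 6 passed, Cbfb included (0.023), and 3220 genes in all (16.2%) were called where the fit to all arrays called 979. The fit to all 23 arrays shares 1 spread per gene between these and the transplanted groups. In bulk RNA, fewer cells of one kind in a sorted fraction and less RNA per cell cannot be told apart. The mean of 7 granulocyte-monocyte progenitor genes was 6.61 to 7.71 in knockout CMPs and 9.28 to 10.33 in control CMPs, and the mean of 10 monocyte genes was 4.90 to 5.41 against 7.32 to 7.55, and their part in the Spi1 and Gfi1 values was not tested.

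**Figure D2:**
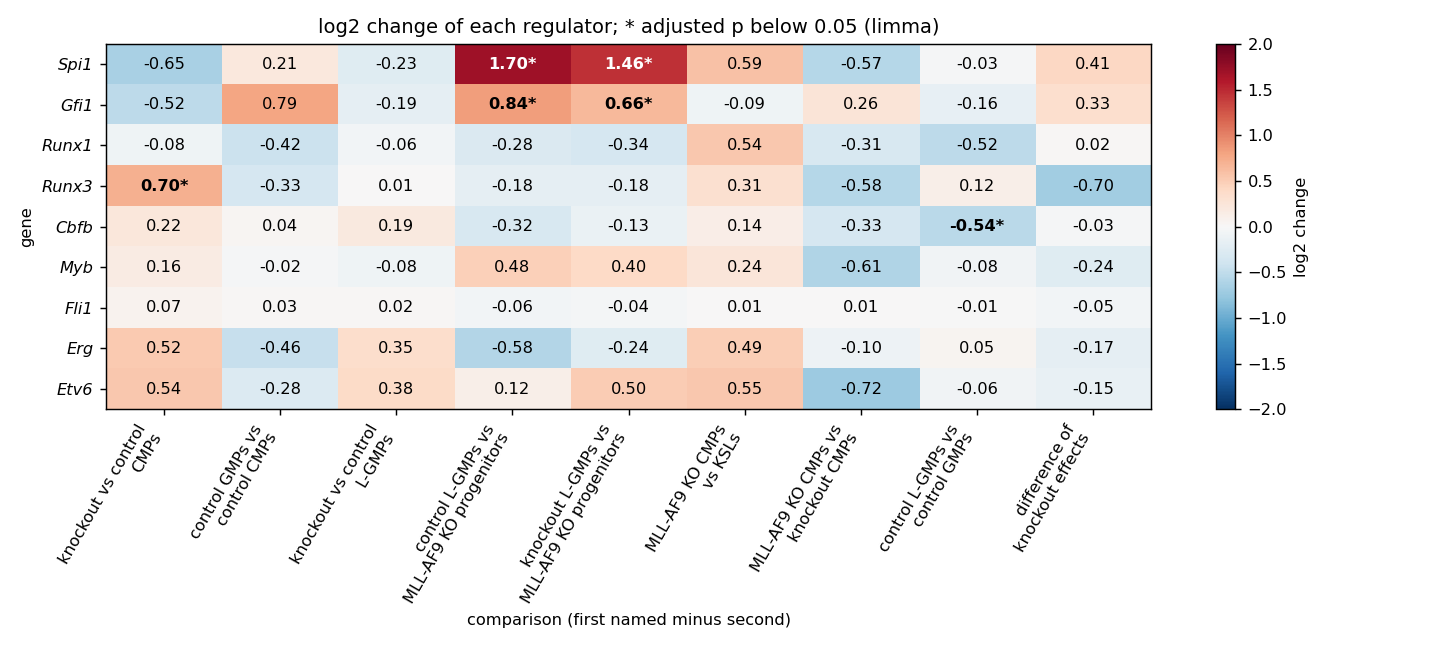
Cells give the log2 change of each measured gene (vertical axis) in each comparison (horizontal axis, first named minus second), coloured from blue (lower) to red (higher), with an asterisk where the limma adjusted p was below 0.05. The 6 marked cells are Spi1 and Gfi1 in both L-GMP genotypes against MLL-AF9 knockout progenitors, Runx3 in knockout CMPs and Cbfb in control L-GMPs against GMPs.

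The genes around these factors moved in knockout CMPs as follows. Of 21 measured PU.1 target genes, 8 fell and 0 rose, with a median of -0.67 against 0 over all genes. Of all genes 2.64% fell and 2.27% rose. Csf1r, the M-CSF receptor, fell by 3.17, the NADPH oxidase subunit Cybb by 2.71 and Csf3r, the G-CSF receptor, by 1.05 (limma adjusted p 6.33e-07, 0.000871 and 0.000761). Among 12 partners and antagonists of PU.1, 3 rose and 3 fell: Cebpa fell by 2.23, Irf8, a partner of PU.1 in monocyte formation, fell by 2.98, and the early response factor Egr1 rose by 1.35 (adjusted p 1.69e-06, 8.72e-06 and 0.00164). Of 10 RUNX1 target genes, 4 fell and 0 rose; the neutrophil elastase gene Elane fell by 4.85 (adjusted p 1.24e-05). Of 15 RUNX cofactors, the co-repressor Tle3 rose by 0.49 and the arginine methyltransferase Prmt1 fell by 0.34 (adjusted p 0.0325 and 0.0184). Kdm1a, the histone demethylase that GFI1 recruits, rose by 0.38 (adjusted p 0.0459), the only call among 9 GFI1 partners. Of 21 other ETS genes, Elf2 and Elk4 rose by 0.50 and 0.44 (adjusted p 0.0344 and 0.0446). Among 8 partners in stem and progenitor cells 0 passed the limma test, and the smallest adjusted p was Tal1's (0.72 ± 0.28, 0.198). Of 11 measured MYB relatives and targets, the survival gene Bcl2 fell by 0.84 (adjusted p 0.0184). C/EBPa itself is in both the partner and the RUNX1 target list, and Csf1r is in both target lists.

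Normal passage from CMPs to GMPs brought higher Gfi1 values in control marrow. Gfi1 was at 6.42, 6.96 and 7.00 in the 3 GMP arrays, above the 4 CMP arrays given above. The difference of 0.79 ± 0.18 (SE), 1.73-fold, had a limma adjusted p of 0.0556. With 1 array left out it ran from 0.69 to 0.98 (adjusted p 0.0268 to 0.298) and passed in 2 of 7 cases. It passed without control CMP array 4 (0.88, adjusted p 0.0403) or control GMP array 1 (0.98, 0.0268), with array weights (0.83, 0.00168), among genes with a mean of at least 5 (0.79, 0.0297) and with arrays centred on their median (0.80, 0.0484). In the fit to all arrays 0 of 9 genes passed, where 1.05% of all genes did, and 1 had an unadjusted p below 0.05, where 7.87% did. Spi1 was at 9.12, 9.06 and 9.03 in GMPs, 0.21 ± 0.21 above CMPs (adjusted p 1). Runx1 (8.84 to 9.22), Erg (7.77 to 7.89) and Etv6 (9.39 to 9.53) lay below all CMP arrays, by 0.42, 0.46 and 0.28, none past the test. Arrays of 5 of the 9 genes did not overlap, against 16.3% of all genes. Runx3 differed by -0.33 ± 0.19, and Cbfb, Fli1 and Myb by 0.04, 0.03 and -0.02, all with overlapping arrays. In a fit to the 7 arrays alone Etv6 passed instead (adjusted p 0.0301).

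Of the PU.1 targets, 3 of 21 rose from CMPs to GMPs and 0 fell, where 0.717% of all genes rose and 0.331% fell. Ncf4 rose by 0.92, Cybb by 2.21 and the integrin Itgb2 by 1.06 (limma adjusted p 0.00188, 0.0191 and 0.0365). Among PU.1 partners 1 rose, the granulocyte factor Cebpe (1.59, adjusted p 0.00144), and 3 fell, among which Egr1 fell by 2.12 and Gata1, the erythroid antagonist of PU.1, fell by 1.83 (adjusted p 0.000264 and 0.00551). The GFI1 paralogue Gfi1b fell by 2.08 (adjusted p 0.00296), Prmt1 by 0.49 (0.00941) and the platelet gene Pf4, in the RUNX1 list, fell by 3.73 (0.0115). The ETS, stem cell partner and MYB lists had 0 calls; their smallest adjusted p values belonged to Erf (-0.56, 0.211), Gata2 (-1.87, 0.0788) and Bcl2 (-0.84, 0.0801). The mean of 8 erythroid genes was 5.61 to 5.84 in GMPs and 7.23 to 7.98 in CMPs, and 3 of them fell, with a median of -1.71. The mean of 6 megakaryocyte genes was 5.66 to 6.00 against 6.97 to 7.33, and the part of either in these values was not tested.

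In leukaemic GMPs, 0 of the 9 genes passed in knockout against control cells, where 3.27% of all genes did, and 0 had an unadjusted p below 0.05, where 19.2% did. Spi1 was at 9.05 and 9.05 in primary and 9.09 and 8.98 in secondary control L-GMPs, and at 8.60 in the primary and 8.89 and 9.13 in the secondary knockout L-GMPs. Of the 3 knockout arrays 2 lay below all 4 controls and 1 above them, so the groups overlapped, and the difference was -0.23 (95% interval -0.70 to 0.23, adjusted p 0.61). Gfi1 was at 7.08, 6.77, 6.14 and 6.54 in controls and at 6.34, 6.39 and 6.70 in the knockout leukaemia, a difference of -0.19 (interval -0.59 to 0.22, adjusted p 0.648). Etv6 was the 1 gene whose arrays did not overlap, a state found for 13.9% of all genes: it ran from 9.70 to 9.96 in the knockout and from 9.29 to 9.54 in the control arrays (0.38 ± 0.27, adjusted p 0.46). Erg differed by 0.35 ± 0.27 and Cbfb by 0.19 ± 0.17. With 1 array left out, Erg ran from 0.04 to 0.65, Cbfb from 0.03 to 0.35, Spi1 from -0.29 to -0.03 and Gfi1 from -0.29 to -0.09, and none passed. Runx1, Runx3, Myb and Fli1 differed by -0.06, 0.01, -0.08 and 0.02. The narrowest 95% interval of these 4 was that of Runx3, -0.41 to 0.43, so changes of that size were not detectable here. Within control L-GMPs, Runx1 was at 9.36 and 9.01 in primary and 8.14 and 7.64 in secondary recipients, and Myb at 10.94 and 10.88 against 10.04 and 10.08. Gfi1 and Erg did not overlap between generations either, Erg being at 8.83 and 7.89 against 7.13 and 7.65. These 4 of 9 genes stand beside 41.5% of all genes, and the split was not tested.

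The surrounding genes gave few calls in this comparison, where 651 of all genes (3.27%) passed. The 3 knockout arrays stem from 1 leukaemia of recipients given the IL-3 and GM-CSF vectors. The p-values measure the spread between arrays, and the vectors cannot be told apart from the knockout. In a fit to the L-GMP arrays alone 11 of all genes passed. Itgam, the CD11b chain, rose by 1.42 as the only call among 21 PU.1 targets (limma adjusted p 0.00587). Cebpa fell by 2.71 (adjusted p 1.45e-06), the ETS repressor Elk3 rose by 0.74 (0.00502), the co-repressor Tle4 rose by 0.60 (0.0321) and the cell cycle factor Mybl2 fell by 0.60 (0.0307). GFI1 partners and stem cell partners had 0 calls, with Rcor1 (0.51, adjusted p 0.0571) and Meis1 (1.29, 0.441) closest.

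The test of the difference between both knockout effects called 0 of 9 genes, against 2.8% of all genes, and 1 had an unadjusted p below 0.05, against 16.3%. That was Runx3, at 0.70 in CMPs and 0.01 in L-GMPs: the difference of effects was -0.70 ± 0.27 (SE), with a limma adjusted p of 0.194 in the fit to all arrays and 0.037 in a fit to the 15 arrays concerned. The difference was 0.41 ± 0.30 for Spi1 and 0.33 ± 0.26 for Gfi1 (adjusted p 0.523 and 0.563), and between -0.24 and 0.02 for the other 6 genes. By contrast 5 of 21 PU.1 targets differed, all towards a smaller fall or a rise in L-GMPs, led by Csf1r (3.29), Cybb (2.97) and Ncf1 (1.78), with adjusted p of 5.18e-05, 0.0124 and 0.00618. With the knockout leukaemia taken as 1 sample 2 targets passed.

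Both kinds of L-GMPs had more Spi1 and Gfi1 than MLL-AF9 knockout progenitors that had not become leukaemic. Spi1 was at 7.62 and 6.48 in the KSLs of mouse 9 and mouse 11 and at 8.03, 7.21 and 7.67 in the CMPs of mouse 9, mouse 11 and mouse 4, and no other array but 1 knockout CMP array (7.92) lay as low as the highest of them. All 7 L-GMP arrays lay above these 5. In control L-GMPs Spi1 was higher by 1.70 ± 0.19 (SE), 3.24-fold (limma adjusted p 1.22e-05), and in knockout L-GMPs by 1.46 ± 0.21, 2.75-fold (adjusted p 0.000188). Of the 9 genes, 2 were higher and 0 lower in each comparison, where 8.51% of all genes were higher and 19% changed in control L-GMPs, and 7.27% were higher and 13.2% changed in knockout L-GMPs. Both comparisons share the 5 progenitor arrays, and in both the L-GMPs differ from the progenitors in sorted population as well as in leukaemia. Control L-GMPs differ from them in C/EBPa genotype too, and the knockout leukaemia in the IL-3 and GM-CSF vectors, and these cannot be told apart. Arrays of 2 genes did not overlap in each, against 7.73% and 12.6% of all genes.

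Gfi1 was at 5.59 and 6.08 in these KSLs and at 5.71, 6.04 and 5.48 in these CMPs, below all 7 L-GMP arrays. Its difference was 0.84 ± 0.16 (SE) for control L-GMPs, 1.79-fold (limma adjusted p 0.00181), and 0.66 ± 0.18 for knockout L-GMPs, 1.58-fold (adjusted p 0.0259). The call in control L-GMPs was lost with array weights (adjusted p 0.0861) and in a fit to the compared arrays alone (0.0871). The call in knockout L-GMPs was lost without secondary knockout L-GMP array 2 (0.58, adjusted p 0.0987), without the KSL array of mouse 9 (0.53, 0.0812), without both arrays of mouse 9 (0.53, 0.102), with the leukaemia as 1 sample (0.69, 0.214), with array weights (0.107) and in the fit to the compared arrays alone (0.269). Spi1 in knockout L-GMPs was lost in the last of these fits only (adjusted p 0.139).

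The other 7 genes did not pass in either comparison. In control L-GMPs the difference was -0.58 ± 0.23 for Erg (limma adjusted p 0.0958) and -0.32 ± 0.14 for Cbfb (0.125), with overlapping arrays. Erg passed without primary control L-GMP array 2 (-0.82, adjusted p 0.0309) or the CMP array of mouse 11 (-0.69, 0.0445), and Cbfb without primary control L-GMP array 1 (-0.49, 0.0184). Myb differed by 0.48 ± 0.27 and passed without the KSL array of mouse 11 (0.95, adjusted p 0.000655). Runx1, Runx3, Fli1 and Etv6 differed by -0.28, -0.18, -0.06 and 0.12. Without both arrays of mouse 9 Runx3 passed as lower (-0.46, adjusted p 0.0441), and Runx1, Myb, Fli1 and Etv6 changed sign. In knockout L-GMPs the differences were 0.50 for Etv6, 0.40 for Myb, -0.34 for Runx1, -0.24 for Erg, -0.18 for Runx3, -0.13 for Cbfb and -0.04 for Fli1. Without the KSL array of mouse 11 Myb (0.87, adjusted p 0.00269) and Etv6 (0.84, 0.00827) passed.

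The PU.1 targets were higher in L-GMPs in the same comparisons. In control L-GMPs 13 of 21 rose and 0 fell, where 8.51% of all genes rose, with a median of 1.65 against -0.002 over all genes. Csf3r rose by 1.92, Ncf4 by 1.28 and Csf1r by 2.29 (limma adjusted p 1.96e-07, 1.24e-06 and 1.66e-06). In knockout L-GMPs 14 rose and 1 fell, where 7.27% of all genes rose and 5.93% fell, with a median of 1.85 against -0.02. Itgam rose by 3.63, Csf3r by 1.99 and Csf1r by 2.41 (adjusted p 1.14e-07, 6.21e-07 and 3.91e-06). Without mouse 9 the rises numbered 16 and 14, and in fits to the compared arrays alone 7 and 7. The 21 targets include Fcgr3, whose product marks GMPs in the sort. In the fit to all arrays it was among the rises in both comparisons, and the sorting gates differ between the compared groups. Cebpe rose by 2.26 and 2.71 (adjusted p 5.66e-07 and 3.52e-07), Irf8 rose by 2.19 in control L-GMPs (2.51e-05), while Egr1 fell by 2.41 and Gata1 fell by 2.62 (3.46e-06 and 1.9e-05) in knockout L-GMPs. The mean of the 7 granulocyte-monocyte progenitor genes was 9.49 to 10.84 in the 7 L-GMP arrays and 5.61 to 6.52 in the 5 progenitor arrays, and its part in the Spi1, Gfi1 and target values was not tested.

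**Figure D3:**
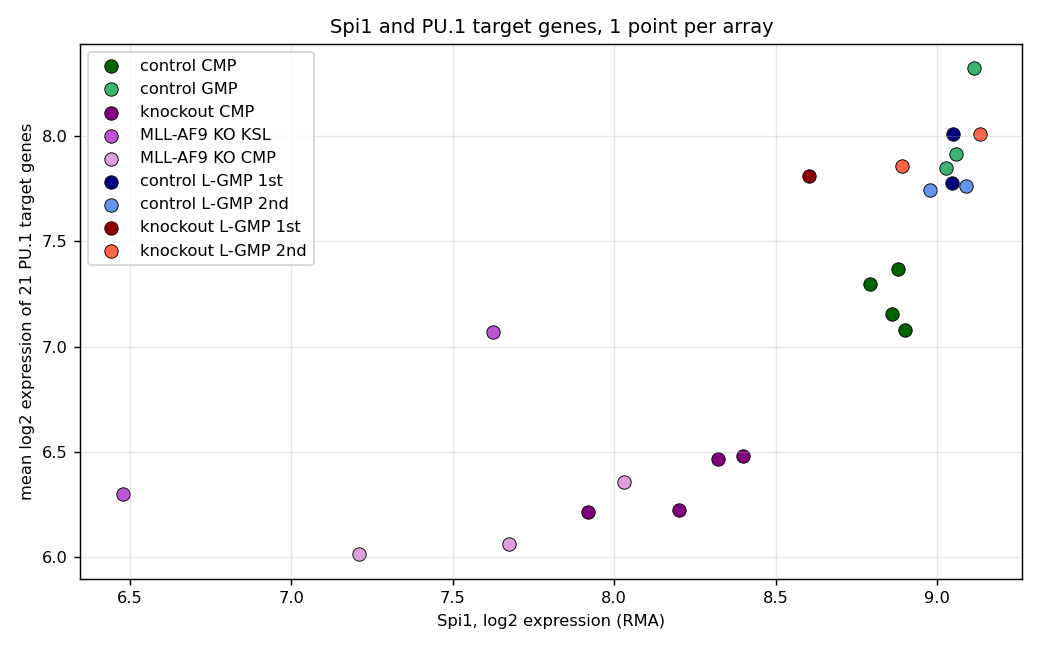
Each point is 1 of the 23 arrays, with the log2 expression of Spi1 on the horizontal axis, the mean log2 expression of 21 PU.1 target genes on the vertical axis, and the group as colour. L-GMPs and GMPs lie at the upper right with target means of 7.74 to 8.32, control CMPs at 7.08 to 7.37, and knockout CMPs and MLL-AF9 knockout progenitors below, from 6.01 to 6.48 apart from the KSLs of mouse 9 at 7.07. The target mean includes Fcgr3, a gene of the sorting gates.

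Of 8 factors that work with the ETS and RUNX genes in stem and progenitor cells, 5 fell and 0 rose in control L-GMPs, where 10.5% of all genes fell, and 5 fell while 1 rose in knockout L-GMPs, where 5.93% fell. Their medians were -0.63 and -0.64. Erythroid markers moved with them: their mean over 8 genes was at most 5.86 in the 7 L-GMP arrays and 6.43 to 8.50 in the 5 progenitor arrays, and 6 of 8 fell in control and 5 of 8 in knockout L-GMPs. The megakaryocyte mean was 4.95 to 5.52 against 6.18 to 9.55, with falls of 3 and 2 of 6 genes, and the part of either in these values was not tested. The E-protein genes Tcf12 and Tcf3 fell by 0.66 and 0.60 in control L-GMPs (limma adjusted p 0.00169 and 0.00768) and by 0.65 and 0.62 in knockout L-GMPs (0.00564 and 0.0166). Ldb1 fell by 0.90 in control and Tal1 by 1.19 in knockout L-GMPs (adjusted p 0.0105 and 0.0159). Of 9 GFI1 partners, 4 fell in control and 1 in knockout L-GMPs, and Gfi1b fell by 1.74 in control and fell by 2.22 in knockout L-GMPs (adjusted p 0.000328 and 0.000125). Kdm1a and Hdac2 fell by 0.43 and 0.50 in control L-GMPs (0.00615 and 0.0254). Of 21 other ETS genes, 1 rose and 4 fell in control L-GMPs and 2 rose and 3 fell in knockout L-GMPs: Etv3 fell by 1.31 and 1.58 (0.00036 and 0.000242), Ets1 by 1.40 and 1.57 (0.00446 and 0.00591), Elk4 by 0.83 in control L-GMPs (9.74e-05), and Ets2 rose by 1.74 in knockout L-GMPs (0.00539). Of 15 RUNX cofactors 1 rose and 4 fell in control L-GMPs and 4 rose and 1 fell in knockout L-GMPs. The direct test of knockout against control L-GMPs called 1 of the 15. The kinase Hipk2 rose by 1.02 in control L-GMPs (0.00125) and Tle4 by 0.79 in knockout L-GMPs (0.000895). Of 11 MYB relatives and targets, 2 rose and 3 fell in control and 1 rose and 4 fell in knockout L-GMPs, among them Kit, which fell by 2.46 and 1.80 (2.36e-05 and 0.00135), and Cd34, which rose by 0.84 and 1.50 (0.00144 and 2.81e-05), both genes of the sorting gates. Of 10 RUNX1 targets 5 rose and 2 fell in control and 3 rose and 2 fell in knockout L-GMPs, with Elane up by 6.46 and 6.47 (7.46e-08 and 3.32e-07). The rises in control L-GMPs include Cebpa (2.74, 2.24e-08), the deleted gene, whose difference is set by genotype. The list counts here come from the fit to all arrays and are not given without mouse 9. That fit called 3780 genes in control and 2632 in knockout L-GMPs. Fits to the compared arrays alone called 493 and 347.

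**Figure D4:**
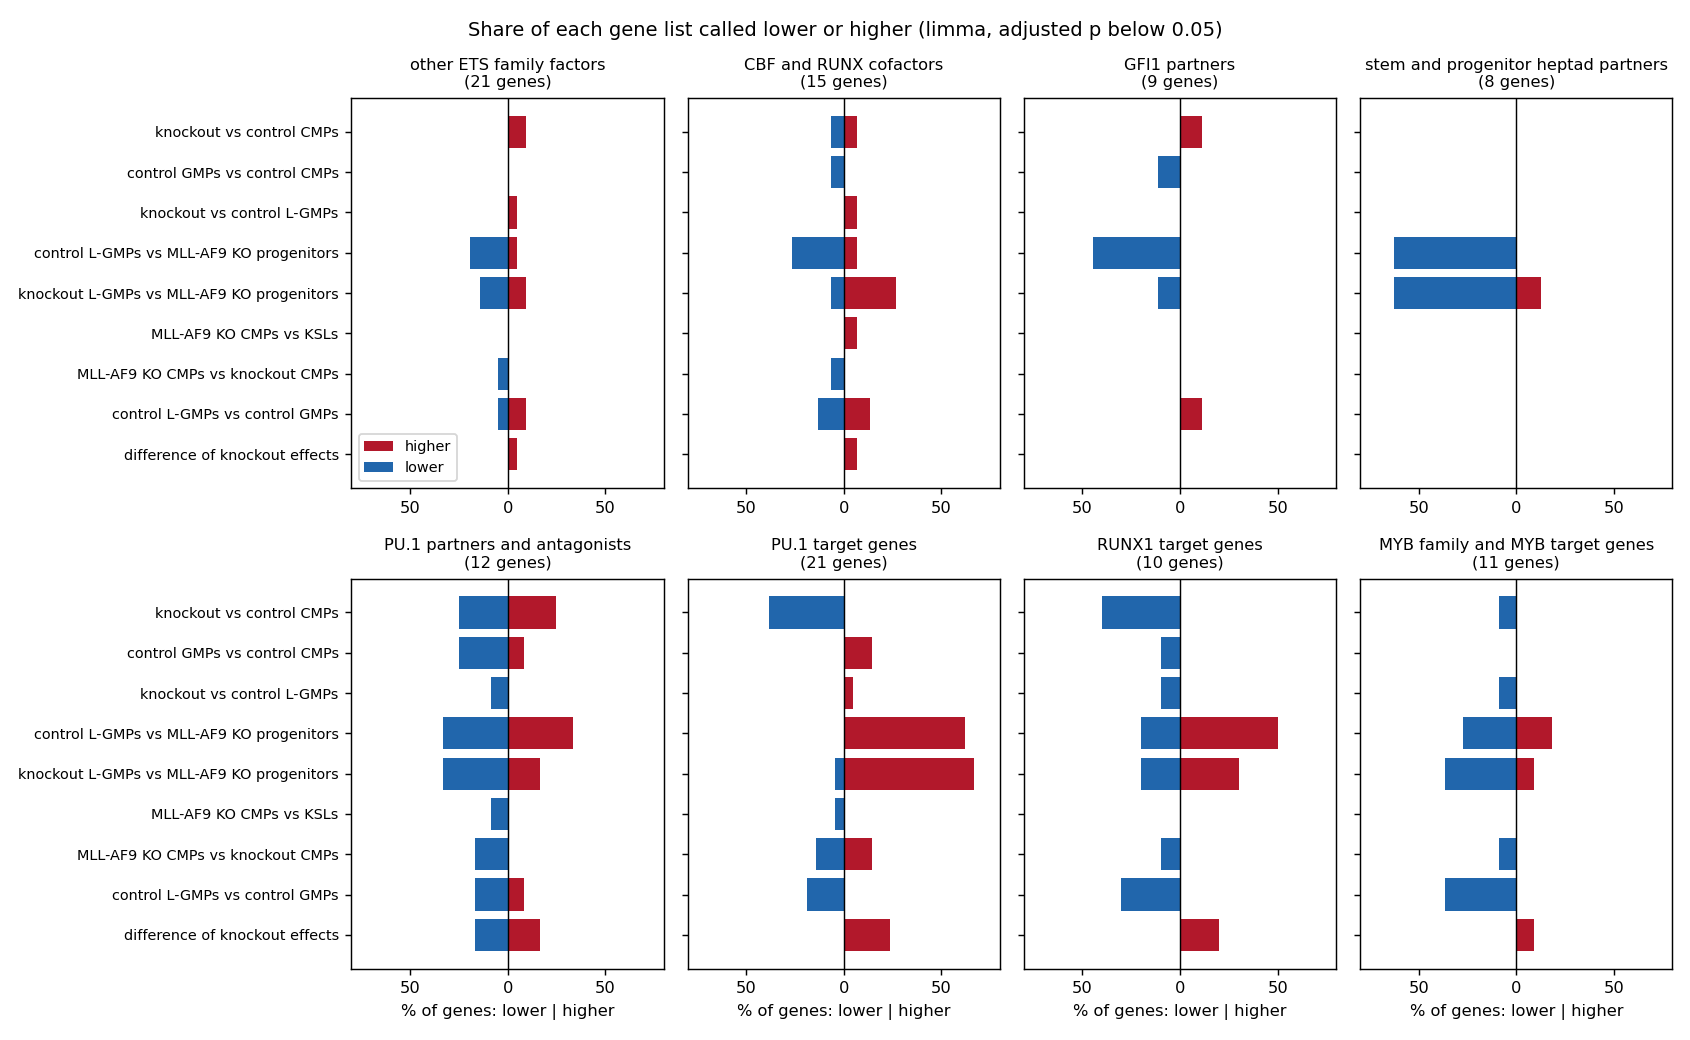
Bars give, for each of 8 gene lists, the percentage of measured genes called lower (blue, left) or higher (red, right) in each comparison by limma at an adjusted p below 0.05; the vertical axis names the comparisons. PU.1 targets fell in knockout CMPs (8 of 21) and rose in L-GMPs against MLL-AF9 knockout progenitors (13 and 14 of 21), where stem and progenitor partners fell (5 of 8 in each). All counts are from the fit to all arrays.

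Within MLL-AF9 knockout recipients without leukaemia, the CMPs held more Spi1 than the KSLs of the same mouse. Spi1 was at 8.03 in CMPs and 7.62 in KSLs of mouse 9, and at 7.21 and 6.48 in mouse 11, and mouse 4 gave CMPs only. The difference over all arrays was 0.59 ± 0.25 (SE), with a limma adjusted p of 0.208. With the mouse as a block it was 0.57 (adjusted p 0.0299) and rested on mouse 9 and mouse 11 only, which gave both compartments. Without the KSL array of mouse 9 it was 1.16 (adjusted p 0.0122), without that of mouse 11 it was 0.01 (1), and without both arrays of mouse 9 it was 0.96 (0.0148). In the fit to all arrays 0 of 9 genes passed, against 3.32% of all genes, and 1 had an unadjusted p below 0.05, against 20.2%. Arrays of Erg did not overlap (8.94, 8.28 and 8.89 in CMPs, 8.24 and 8.19 in KSLs; 0.49 ± 0.32, adjusted p 0.409), where 19.4% of all genes did not. Fli1 and Runx1 followed the mouse rather than the compartment. Fli1 was at 10.00 and 9.53 in KSLs and CMPs of mouse 9, at 8.33 and 8.17 in mouse 11 and at 9.81 in CMPs of mouse 4. Runx1 was at 9.22 and 9.93 in mouse 9, at 7.88 and 7.88 in mouse 11 and at 9.46 in mouse 4. Myb and Etv6 were lowest in the KSLs of mouse 9, at 8.94 and 8.33, against 10.84 and 9.70 in those of mouse 11.

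The differences of Etv6, Runx1, Runx3, Myb, Cbfb, Fli1 and Gfi1 between these CMPs and KSLs were 0.55, 0.54, 0.31, 0.24, 0.14, 0.01 and -0.09, none past the test. Without the KSL array of mouse 11, Etv6 (1.23, limma adjusted p 0.00846), Myb (1.19, 0.00483) and Runx3 (0.75, 0.0466) passed. Without the CMP array of mouse 11 Runx1 passed (1.14, adjusted p 0.0335). Prmt1 rose by 0.65 (0.00371), Cebpb, a relative of C/EBPa, fell by 0.93 (0.0437) and Csf3r fell by 0.92 (0.0197); each was the only call in its list. The other lists had 0 calls, with Etv1 (-0.93, 0.0776), Pias3 (0.72, 0.0917), Tcf3 (0.67, 0.0653), Csf2 (0.26, 0.162) and Birc3 (-0.86, 0.109) closest.

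Knockout CMPs that had carried MLL-AF9 through culture and a recipient were set against knockout CMPs from untransplanted marrow. These groups come from different experiments, so MLL-AF9, culture, transplantation and array batch cannot be told apart, and the same holds for L-GMPs against GMPs. Of 9 genes 0 passed, where 4.88% of all genes did, and 3 had an unadjusted p below 0.05, where 19.4% did. Etv6 was at 9.08, 9.38 and 10.21 in the MLL-AF9 CMPs, a difference of -0.72 ± 0.26 (SE), limma adjusted p 0.124. Runx3 was at 8.31, 8.42 and 8.89, below all 4 knockout CMP arrays, a difference of -0.58 ± 0.19 (adjusted p 0.1). Spi1 differed by -0.57 ± 0.21 (adjusted p 0.142), and Myb by -0.61 ± 0.30 (0.281), with MLL-AF9 arrays at 9.68, 10.57 and 10.12 below the 10.63 to 10.88 of knockout CMPs. Arrays of 2 genes, Runx3 and Myb, did not overlap, against 16.3% of all genes. Without the array of mouse 4 Etv6 (-1.05, adjusted p 0.0146) and Runx3 (-0.75, 0.0305) passed, and without mouse 9 Spi1 did (-0.77, 0.00448). Cbfb, Runx1, Erg, Fli1 and Gfi1 differed by -0.33, -0.31, -0.10, 0.01 and 0.26.

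Among the lists, 3 of 21 PU.1 targets rose and 3 fell in this comparison, where 1.51% of all genes rose and 3.36% fell. Csf3r fell by 1.57 and Itgam by 1.25, and Itgb2 rose by 1.13 (limma adjusted p 0.00037, 0.0108 and 0.0123). Without mouse 9, 1 target rose and 5 fell. Egr1 and Jun fell by 0.96 and 0.97 (adjusted p 0.0275 and 0.0293), Elf2 by 0.74 (0.00751), Sin3a by 0.42 (0.0365), the granule enzyme Mpo by 3.97 (0.00209) and Cd34, a gene of the CMP gate, fell by 1.83 (0.00037). GFI1 partners and stem cell partners had 0 calls, with Kdm1a (-0.34, 0.0952) and Lyl1 (0.25, 0.386) closest.

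Against normal GMPs, control L-GMPs differed in 1 of the 9 genes. Cbfb was at 8.41 and 7.76 in primary and 7.87 and 8.24 in secondary control L-GMPs, below the 8.83, 8.48 and 8.52 of GMPs. The difference was -0.54 ± 0.16 (SE), 1.45-fold lower, with a limma adjusted p of 0.023. Of all genes 14.7% were lower and 25.3% changed in this comparison, and arrays of 30.8% did not overlap, against 1 of 9 here. The Cbfb call was lost in a fit to the 7 arrays alone (adjusted p 0.12) and without primary control L-GMP array 2 (-0.38, 0.0975), secondary control L-GMP array 1 (-0.45, 0.0795) or GMP array 1 (-0.43, 0.103). Spi1 was at 8.98 to 9.09 in L-GMPs and 9.03 to 9.12 in GMPs, a difference of -0.03 with a 95% interval of -0.48 to 0.42. Gfi1 differed by -0.16, Runx1 by -0.52, Runx3 by 0.12, Myb by -0.08, Fli1 by -0.01, Erg by 0.05 and Etv6 by -0.06, all with overlapping arrays.

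Of the PU.1 targets 4 of 21 fell in L-GMPs against GMPs and 0 rose, led by Csf1r, Csf3r and the endotoxin receptor Tlr4, which fell by 1.55, 0.80 and 2.10 (limma adjusted p 0.000466, 0.00317 and 0.00635). Irf8 and Klf4 fell by 1.42 and 1.25 and Egr2 rose by 1.48 (adjusted p 0.00342, 0.0179 and 0.00581). Of 12 PU.1 partners 1 rose and 2 fell, where 25.3% of all genes changed. Gfi1b rose by 0.90 (0.0432). The ETS genes Etv1 and Elf4 rose by 0.98 and 0.52 and Elk3 fell by 0.43 (0.00736, 0.0333 and 0.0251). Tle2 and Crebbp rose by 0.56 and 0.51 and Hdac3 fell by 0.53 (0.0156, 0.0199 and 0.0191). Hlx and Pf4 fell by 0.59 and 1.91 (0.0438 and 0.0499). Of 11 MYB relatives and targets 4 fell, where 14.7% of all genes did. Among them were Mybl1, Myc and Cd34, which fell by 1.10, 1.17 and 0.80 (adjusted p 0.000523, 0.00346 and 0.00542). Stem cell partners had 0 calls, with Meis1, a known target of MLL fusions, at 1.95 ± 0.83 (adjusted p 0.0959).

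The order of the group means can be read for the genes that varied most. Spi1 was highest in GMPs, control L-GMPs and secondary knockout L-GMPs, whose arrays overlapped, then came control CMPs, the primary knockout L-GMP array, knockout CMPs, MLL-AF9 knockout CMPs and KSLs, and the last 3 overlapped in turn with their neighbour. Gfi1 was highest in primary control L-GMPs and GMPs and lowest in knockout CMPs. Runx3, Etv6, Erg and Cbfb had their highest group mean in knockout CMPs. Across the 23 arrays, Runx3 and Etv6 had a Pearson r of 0.81, Spi1 and Gfi1 of 0.56, Gfi1 and Erg of -0.61 and Gfi1 and Runx3 of -0.61; these describe arrays that share groups, experiment and normalization. The genes most like each one over the 23 arrays were Mfsd1 (r 0.92) and Nfam1 (0.92) for Spi1, Kcnk6 (0.94) and Mgam (0.91) for Gfi1, Smad7 (0.91) and Ulk1 (0.88) for Runx3, Wdfy3 (0.85) and Rap2b (0.84) for Runx1, Echdc1 (0.89) and Thap2 (0.89) for Cbfb, Slc30a9 (0.93) and Thoc2l (0.83) for Myb, Madd (0.85) and Usp18 (0.82) for Erg, and Hook2 (0.89) and Sdcbp (0.88) for Etv6. For Fli1, Cited2 (0.85) and Mctp1 (0.80) came closest over arrays, but over the 9 group means their r was -0.07 and 0.10.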

How the data were processed

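Arrays of amplified mouse progenitor RNA were read as deposited: log2 expression values of 34760 probe sets, made by the authors with RMA according to the submitters' processing notes, version not stated there. RMA compresses changes of dim genes; a floor at 3 held 2952 to 3379 probe sets per array, and none of the 9 genes. The small number of arrays limits the precision. The annotation listed 1 symbol for 21640 probe sets, several for 1321 and none for 11799; RefSeq held 21553 of the first. Taking the brightest probe set per symbol gave 19937 genes.

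Means of the 9 groups were modelled in limma 3.58.1 (R 4.3.3) over all 23 arrays, with a trended prior. Calls needed an adjusted p (Benjamini-Hochberg, all genes) below 0.05. Recipient generations, and KSLs and CMPs, counted equally. The fit was tested on simulated data. Mouse numbers pair the KSLs and CMPs of mouse 9 and of mouse 11, which deviated together (r 0.45 and 0.26). The closest arrays had an r of 0.9946. All 9 measured regulators are named in every comparison, with up to 3 changed genes per list, or 1 as a value, and the 2 closest genes by correlation. The regulators and lists were chosen with earlier results of these data known. Alternatives were array weights, fewer arrays, blocks, the mean of probe sets, a filter at 5, median centring, the knockout leukaemia as 1 sample, each array left out and mouse 9 left out.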

Additional observations from a re-analysis of the deposited data

Results flagged for a closer look

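Among the 9 regulators, none of the 18 combinations of gene and group with at least 4 arrays held an array far from the others. Those groups are control CMPs and knockout CMPs, and groups with fewer arrays were not searched. None of the 9 regulators had knockout effects that differed between L-GMPs and CMPs past the limma threshold. Of 105 measured genes on the lists around these regulators, 13 had such a difference of effects (L-GMPs minus CMPs, log2 scale), where 2.8% of all genes did. The 10 named are up to 3 per list with the smallest adjusted p. Each was tested as an interaction over 15 arrays of which the 3 knockout L-GMP arrays stem from 1 leukaemia. Among PU.1 targets, the M-CSF receptor Csf1r differed by 3.29, the oxidase gene Cybb by 2.97 and Ncf1 by 1.78. Among PU.1 partners, Irf8 differed by 2.32, Cebpe by 1.29 and Egr1 by -2.14. Elane, a RUNX1 target encoding neutrophil elastase, differed by 4.86, with knockout CMPs at a mean of 5.58 and knockout L-GMPs at 11.63 in the primary and 11.27 in the secondary arrays. The differences were 1.17 for Cd34 of the MYB list, 0.74 for the ETS gene Elk3 and 0.48 for the RUNX cofactor Prmt1. Cells of the 2 stages also differ in sorted population, culture, MLL-AF9 and cytokine exposure, which cannot be told apart here.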

How the results depend on the processing

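Of 1296 gene values under alternatives, 93 turned in sign, 20 lost and 34 gained a call. Those that turned had a median size of 0.04 in the fit to all arrays. Fits to the compared arrays alone, the filter at 5 and the mean of probe sets leave the regulators' log2 values unchanged. No sign could turn under those settings, which are counted among the 1296. Spi1 kept its direction under each alternative: from -0.71 to -0.55 in knockout CMPs (limma adjusted p 0.000222 to 0.193), from 1.41 to 2.08 in control L-GMPs over non-leukaemic progenitors (8.58e-08 to 0.0338) and from 1.18 to 1.85 in knockout L-GMPs (7.21e-07 to 0.139). Gfi1 also kept it in these comparisons, from -0.58 to -0.42 (0.00883 to 0.308), from 0.71 to 0.97 (0.000854 to 0.0871) and from 0.53 to 0.78 (0.0123 to 0.269). Runx3 ran from 0.62 to 0.78 in knockout CMPs (0.000348 to 0.111) and Cbfb from -0.70 to -0.38 in control L-GMPs against GMPs (0.00321 to 0.12). Only the setting without both arrays of mouse 9 was chosen after seeing the data. The causes of the changes below were not tested, and the number of arrays limits the precision. Same-numbered arrays of knockout and control CMPs did not deviate together (r between -0.21 and 0.08), so the block on the replicate number is given only here; each value below is that of the named setting. With array weights, the genes changed numbered 3762 in knockout against control CMPs, 1257 in GMPs against CMPs, 1250 in control L-GMPs over non-leukaemic progenitors, 3 in MLL-AF9 knockout CMPs against KSLs, 335 in MLL-AF9 knockout against knockout CMPs and 1280 in the difference of knockout effects. There, the regulators passing numbered 5 in knockout against control CMPs, 1 in GMPs against CMPs, 1 in control L-GMPs over non-leukaemic progenitors and 1 in knockout L-GMPs over non-leukaemic progenitors. In fits to the compared arrays alone, the genes changed numbered 3220 in knockout against control CMPs, 643 in GMPs against CMPs, 11 in knockout against control L-GMPs, 493 in control L-GMPs over non-leukaemic progenitors, 347 in knockout L-GMPs over non-leukaemic progenitors, 0 in MLL-AF9 knockout CMPs against KSLs, 443 in MLL-AF9 knockout against knockout CMPs, 3258 in control L-GMPs against GMPs and 1582 in the difference of knockout effects. There, the regulators passing numbered 6 in knockout against control CMPs, 1 in GMPs against CMPs, 1 in control L-GMPs over non-leukaemic progenitors, 0 in knockout L-GMPs over non-leukaemic progenitors, 0 in control L-GMPs against GMPs and 1 in the difference of knockout effects. Among genes with a mean of at least 5, the regulators passing numbered 2 in knockout against control CMPs and 1 in GMPs against CMPs. Over all settings but those with 1 array left out, 831 to 3762 genes changed in knockout against control CMPs. In GMPs against CMPs, 156 to 1257 genes changed over the same settings. With arrays centred on their median, the regulators passing numbered 1 in GMPs against CMPs. Signs turned for Runx3 -0.016 and Fli1 -0.0067 in knockout against control L-GMPs, Fli1 0.062, Spi1 0.042 and Etv6 0.0054 in control L-GMPs against GMPs and Runx1 -0.019 in the difference of knockout effects. With the replicate number as a block, the genes changed numbered 409 in knockout against control L-GMPs, 220 in MLL-AF9 knockout CMPs against KSLs, 631 in MLL-AF9 knockout against knockout CMPs and 3342 in control L-GMPs against GMPs. There, the regulators passing numbered 0 in control L-GMPs against GMPs. Signs turned for Fli1 -0.089 in knockout against control L-GMPs, Fli1 -0.066 in MLL-AF9 knockout CMPs against KSLs, Fli1 0.065 in control L-GMPs against GMPs and Runx1 -0.13 in the difference of knockout effects. With mouse and leukaemia as a random block, the genes changed numbered 382 in knockout against control L-GMPs and 1041 in MLL-AF9 knockout CMPs against KSLs. Signs turned for Fli1 -0.049 in MLL-AF9 knockout CMPs against KSLs. With the knockout leukaemia as 1 sample, the genes changed numbered 90 in knockout against control L-GMPs, 952 in knockout L-GMPs over non-leukaemic progenitors and 159 in the difference of knockout effects. There, the regulators passing numbered 1 in knockout L-GMPs over non-leukaemic progenitors. Signs turned for Fli1 0.020 in knockout L-GMPs over non-leukaemic progenitors and Fli1 0.0095 in the difference of knockout effects. Over all settings but those with 1 array left out, 347 to 3569 genes changed in knockout L-GMPs over non-leukaemic progenitors. Over these settings 0 to 1041 changed in MLL-AF9 knockout CMPs against KSLs and 335 to 1205 in MLL-AF9 knockout against knockout CMPs. Without both arrays of mouse 9, the regulators passing numbered 1 in knockout L-GMPs over non-leukaemic progenitors, 1 in MLL-AF9 knockout CMPs against KSLs and 1 in MLL-AF9 knockout against knockout CMPs. Signs turned for Runx1 0.26, Myb -0.11, Fli1 0.45 and Etv6 -0.35 in control L-GMPs over non-leukaemic progenitors, Runx1 0.21, Myb -0.19 and Fli1 0.47 in knockout L-GMPs over non-leukaemic progenitors, Myb -0.49 and Runx3 -0.0013 in MLL-AF9 knockout CMPs against KSLs and Fli1 -0.17 in MLL-AF9 knockout against knockout CMPs. With the mouse as a block between paired compartments, the regulators passing numbered 1 in MLL-AF9 knockout CMPs against KSLs. Signs turned for Gfi1 0.043, Cbfb -0.026 and Fli1 -0.32 in MLL-AF9 knockout CMPs against KSLs. Knockout against control CMPs: with 1 array left out, 530 to 817 genes changed and 0 to 1 of the regulators passed. GMPs against CMPs: with 1 array left out, 70 to 196 genes changed and 0 to 1 of the regulators passed, and the log2 value ran for Cbfb from -0.073 to 0.10 and Myb from -0.087 to 0.081. Knockout against control L-GMPs: with 1 array left out, 409 to 2449 genes changed, and the log2 value ran for Runx1 from -0.18 to 0.069, Runx3 from -0.084 to 0.27, Myb from -0.16 to 0.15 and Fli1 from -0.073 to 0.20. Control L-GMPs over non-leukaemic progenitors: with 1 array left out, the log2 value ran for Runx1 from -0.62 to 0.053, Runx3 from -0.40 to 0.033, Fli1 from -0.48 to 0.36 and Etv6 from -0.23 to 0.46. Knockout L-GMPs over non-leukaemic progenitors: with 1 array left out, 1947 to 3276 genes changed and 1 to 4 of the regulators passed, and the log2 value ran for Runx3 from -0.39 to 0.084, Myb from -0.077 to 0.87, Fli1 from -0.46 to 0.38 and Erg from -0.54 to 0.070. MLL-AF9 knockout CMPs against KSLs: with 1 array left out, 355 to 2850 genes changed and 0 to 3 of the regulators passed, and the log2 value ran for Gfi1 from -0.34 to 0.16, Runx1 from -0.13 to 1.21, Runx3 from -0.12 to 0.75, Cbfb from -0.026 to 0.28, Myb from -0.71 to 1.19, Fli1 from -0.83 to 0.84 and Etv6 from -0.14 to 1.23. MLL-AF9 knockout against knockout CMPs: with 1 array left out, 490 to 2035 genes changed and 0 to 2 of the regulators passed, and the log2 value ran for Runx1 from -0.73 to 0.29, Fli1 from -0.31 to 0.52 and Erg from -0.22 to 0.11. Control L-GMPs against GMPs: with 1 array left out, 2764 to 6494 genes changed and 0 to 1 of the regulators passed, and the log2 value ran for Spi1 from -0.054 to 0.0010, Runx3 from -0.012 to 0.22, Fli1 from -0.090 to 0.078 and Erg from -0.18 to 0.29. The difference of knockout effects: with 1 array left out, 383 to 1603 genes changed, and the log2 value ran for Runx1 from -0.10 to 0.15, Cbfb from -0.19 to 0.13, Fli1 from -0.14 to 0.13 and Erg from -0.48 to 0.13.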
